A study of Zea mays with 6 samples.

Results

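The 200 most abundant transcripts of wild-type (WT) maize anthers in meiosis I were taken as the genes with the highest mean normalized count over the 3 WT libraries. They were drawn from a table of 39756 gene IDs, and an interval of IDs holding 368 rows was left out before ranking, 4 of whose genes had a WT mean above that of the last gene kept. RNA was sequenced from immature anthers in 3 mop1 mutant and 3 WT libraries. The mutants were homozygous for mop1 and the WT plants homozygous for the wild-type allele, and both groups shared a hybrid background of the inbred lines Mo17 and B73. The labels state no mop1 allele, no plant age and no pooling of plants. Nor do they state that replicates came from separate plants, so a p-value here may reflect technical spread alone. The ranking used the WT values, so the WT levels, and every difference between mop1 and WT at the chosen genes, are given as descriptions.

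An anther at this stage holds the meiocytes, the tapetum that surrounds and feeds them, and outer wall layers, so a library of whole anthers mixes transcripts of all of them. Abundant transcripts of such a library can include housekeeping transcripts for translation and the cytoskeleton, and products made in bulk by specialised cells such as the tapetum. The mutated gene makes an RNA-dependent RNA polymerase that acts in RNA-directed DNA methylation, in which small RNAs guide methylation to transposons near genes. The table pairs no name with its gene IDs, and 0 of them matched the table of reference genes used here. The roles of the 200 genes, and the labelled cell type (meiocytes) against its markers, were therefore not analysed here. Genes are identified below by their rank in WT, with the ID for the first 10. Ranks and shares count reads, which also grow with transcript length, so they order genes by reads and not by molecules.

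Each library held between 22635163 and 26531475 recovered reads, which is the depth behind every value. Among the 200 genes the lowest count in a WT library was 5016 reads, and the counting error of a WT value was between 0.264% and 1.41%. All 200 passed the filter on low values, through the group in which they had been chosen as high, and 0 of them were at 0 in any library. The library of mop1 replicate 3 stood apart from the others: 540 genes of the 23150 tested were under all other libraries by more than 4-fold there, and results that rest on it are given with and without it. It was also the deepest library. The part of depth in these results was not tested. In RNA of whole anthers, fewer cells of a type and less RNA per cell cannot be told apart.

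The 200 genes were 0.508% of the ranked rows by number and over 10% of the WT reads. Their share of the normalized total was 14.2%, 14.4% and 12.9% in WT replicates 1 to 3. In mop1 replicates 1 to 3 the share was 11.3%, 10.6% and 10.04%. Every mop1 library lay below every WT library. The mean was 13.8% ± 0.769 in WT and 10.6% ± 0.637 in mop1 (SD, n = 3 each), a difference of -3.19 percentage points, and of -2.89 percentage points without mop1 replicate 3. Since 1 factor scales each library, this share is the same in normalized counts and in reads.

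**Figure D1:**
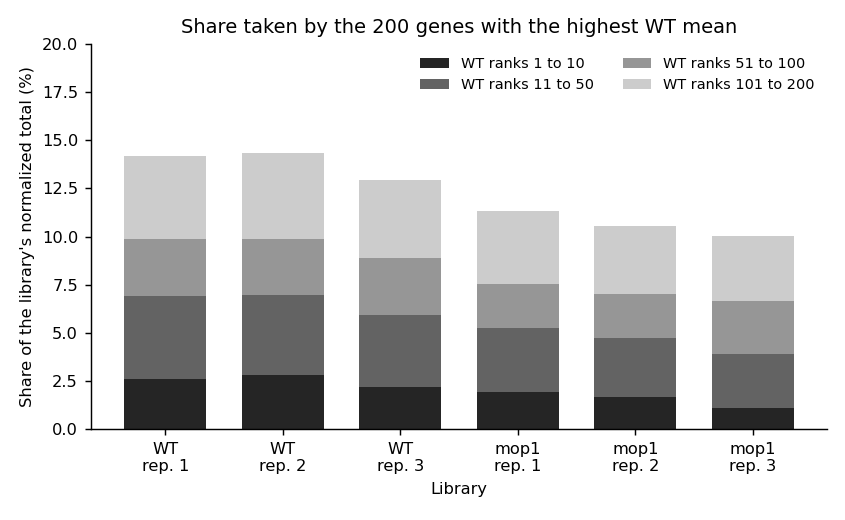
Stacked bars give the percentage of each library's normalized total taken by the 200 genes, in 4 tiers of their WT rank; bars start at 0 and each bar is 1 library. The 3 WT bars reach 12.9% to 14.4% and the 3 mop1 bars 10.04% to 11.3%.

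The tiers contributed unequally to this difference. The first 10 genes took 2.59%, 2.82% and 2.19% of WT replicates 1 to 3, and 1.95%, 1.67% and 1.09% of mop1 replicates 1 to 3. These genes alone made up 30.2% of the difference in share between the genotypes. Their mean share in WT was 2.53%, out of 13.8% for all 200. Without mop1 replicate 3 they gave -0.723 of the -2.89 percentage points. Ranks 11 to 50 took 4.07% ± 0.286 in WT and 3.06% ± 0.236 in mop1, and the last 100 genes took 4.29% ± 0.210 and 3.57% ± 0.181 (SD, n = 3 each). In these tiers too the genotypes did not overlap. Ranks 51 to 100 took 2.89% to 2.95% in WT and 2.25% to 2.74% in mop1, with the highest mop1 value in replicate 3. A lower mean share in mop1 was found at 156 of the 200 genes and a higher one at 44. By log2 difference, 85.0% of the 200 were lower in mop1, against 52.3% of all tested genes. Of the 200 genes with the highest mop1 mean, 58.0% were lower. The WT values chose the genes, and nothing is read from these counts.

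The gene of rank 1, Zm00001eb412240, had normalized counts of 78311, 123125 and 69281 in WT replicates 1 to 3 and of 60755, 72841 and 18960 in mop1 replicates 1 to 3. The WT values differed widely, mop1 replicate 2 lay inside their range, and mop1 replicate 3 lay far below all others. On its own this gene took 0.635% of WT replicate 2 and 0.0983% of mop1 replicate 3. The gene of rank 2, Zm00001eb372830, had 73209, 73471 and 71287 in WT and 46804, 22290 and 24639 in mop1. Its WT libraries lay within a coefficient of variation (CV, the SD over the mean) of 1.64%, among the smallest of all 200 genes, and every mop1 library was lower.

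The gene of rank 3, Zm00001eb383600, had 44836, 65654 and 47544 in WT and 27646, 25620 and 477 in mop1. It is the gene among the first 10 at which mop1 replicate 3 stood farthest from the rest, and in reads the last value is 656. Its log2 difference was -2.90 with that library and -0.96 without it, and mop1 replicates 1 and 2 also lay below every WT library. The gene of rank 4, Zm00001eb304290, had 61584, 53601 and 33979 in WT and 40059, 45933 and 38170 in mop1, so the groups overlapped.

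**Figure D2:**
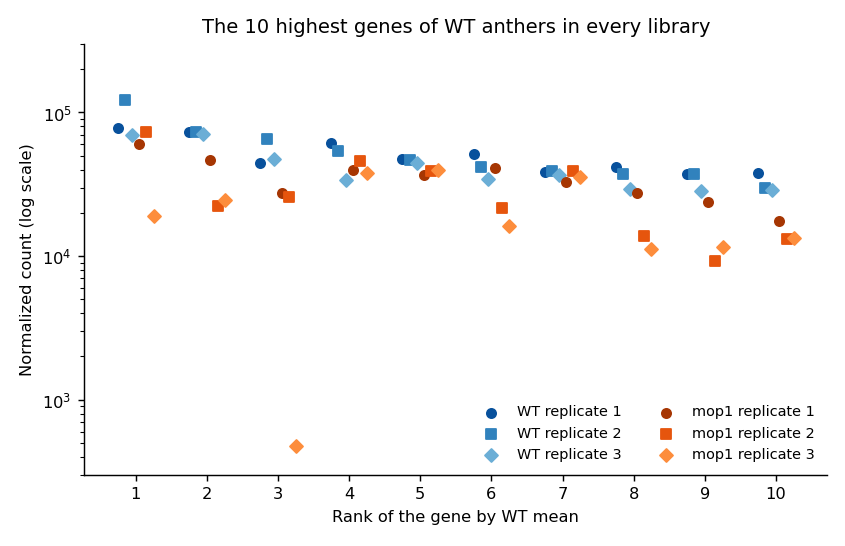
Normalized count on a log axis against WT rank for the first 10 genes; each point is 1 library, with WT in blue and mop1 in orange. The points of ranks 5 and 7 lie close together, while at rank 3 mop1 replicate 3 lies at 477 and the other libraries at 25620 or more.

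Ranks 5 and 7 had a narrow spread within each genotype. Rank 5, Zm00001eb055850, had 47787, 46482 and 44605 in WT and 36738, 38990 and 39687 in mop1. Rank 7, Zm00001eb215710, had 38347, 39072 and 36603 in WT and 32591, 38990 and 35349 in mop1. Their log2 differences were -0.27 and -0.10. At rank 5 every mop1 library was lower than every WT library, and at rank 7 the groups overlapped.

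Ranks 6, 8, 9 and 10 were graded in mop1, with replicate 1 nearest to WT. Rank 6, Zm00001eb109620, had 51221, 41748 and 34574 in WT and 40822, 21481 and 16238 in mop1. Rank 8, Zm00001eb370320, had 42019, 37069 and 29308 in WT and 27539, 13758 and 11253 in mop1. Rank 9, Zm00001eb303940, had 37540, 37177 and 28242 in WT and 23783, 9244 and 11480 in mop1. At ranks 8 and 9 mop1 replicate 1 lay under the lowest WT library and the remaining mop1 libraries lay far below it. Rank 10, Zm00001eb184000, had 38019, 30037 and 28873 in WT and 17522, 13095 and 13443 in mop1. Of the first 10 genes, all mop1 libraries lay below all WT libraries at 6, where 10.2% of all tested genes did so; the WT values chose these genes, and nothing is read from the count.

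Of the 200 genes, 182, 173 and 166 were among the own 200 highest genes of WT replicates 1 to 3, which had chosen them. The corresponding numbers were 153, 126 and 117 in mop1 replicates 1 to 3. In all, 140 were among the 200 highest of every WT library, 79 of every library of either genotype, and 27 of no mop1 library. Over 1000 ranks, WT libraries held 200 of the 200, mop1 replicate 1 held 199, mop1 replicate 2 held 184 and mop1 replicate 3 held 165. The lowest own rank of any of the genes was 373 to 650 in a WT library, 1553 in mop1 replicate 1, 26259 in mop1 replicate 2 and 24497 in mop1 replicate 3.

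Rank correlations across the 200 genes describe the same order. Between WT libraries Spearman's rho was 0.56 to 0.75, and between mop1 replicates 1 and 2 it was 0.70. Between mop1 replicate 2 and the WT libraries it was 0.46 to 0.56. Between mop1 replicate 3 and the other libraries it ran from 0.22 with WT replicate 2 to 0.62 with mop1 replicate 2. The highest value of any pair, 0.81, joined mop1 replicate 1 and WT replicate 1. These values are over 200 genes chosen for a narrow range of WT levels, and the genes share their libraries, so they carry no test.

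Because the ranking drew on the WT libraries, the same question was put to a WT library that had no part in it. With the 200 genes chosen from WT replicates 2 and 3, the held-out WT replicate 1 gave them 13.9% of its total, and the mop1 libraries gave them 9.87% to 11.1%. With WT replicate 2 held out, it gave 14.0% and the mop1 libraries 10.4% to 11.2%. With WT replicate 3 held out, it gave 12.6% and the mop1 libraries 9.58% to 11.4%. The held-out WT library was above every mop1 library in each of the 3 choices, and 185 to 187 of the genes were those of the full ranking. The genes were still chosen as high in WT, so the choice still favours lower values in mop1, and these shares are descriptions. Of the genes so chosen, 169, 158 and 153 were among the own 200 highest of the held-out WT replicates 1 to 3, against 146 to 152 in mop1 replicate 1, 123 to 125 in mop1 replicate 2 and 110 to 121 in mop1 replicate 3.

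At these genes the median log2 deviation from the 2 choosing libraries was 0.0046, -0.039 and -0.18 in the held-out WT replicates 1 to 3. In the mop1 libraries it lay between -0.26 and -0.50 over the 3 choices. More than 2-fold below the choosing libraries were 1, 3 and 15 genes in the held-out WT libraries, 12 to 17 in mop1 replicate 1, 48 to 52 in mop1 replicate 2 and 50 to 77 in mop1 replicate 3. The number in mop1 replicate 1 was near that of WT replicate 3, and those in mop1 replicates 2 and 3 were above every WT library. Of all 23150 tested genes, 3.97%, 6.98% and 11.9% were more than 2-fold below the mean of all WT libraries in mop1 replicates 1 to 3. More than 4-fold below were 0 genes in each held-out WT library, 0 to 2 in mop1 replicate 1, 10 to 18 in mop1 replicate 2 and 19 to 42 in mop1 replicate 3. WT libraries chose the genes, which favours lower values in mop1, and nothing is read from these counts.

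Turning the choice round gave a smaller difference in the same direction. The 200 genes with the highest mop1 mean took 11.6%, 11.8% and 11.4% of mop1 replicates 1 to 3 and 13.1%, 13.0% and 12.2% of WT replicates 1 to 3. Genes chosen by the mean of all 6 libraries, a choice that treats the genotypes alike, took 11.6%, 11.3% and 10.998% in mop1 and 14.0%, 13.9% and 12.8% in WT. Under both choices every WT library was above every mop1 library. With each library's own 200 highest genes the shares were 12.1%, 12.3% and 12.5% in mop1 and 14.3%, 14.6% and 13.3% in WT, a difference of -1.76 percentage points. The exact permutation test over the 6 libraries, two-sided, gave p = 0.1, the smallest that 3 against 3 can give, and so cannot pass 0.05.

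**Figure D3:**
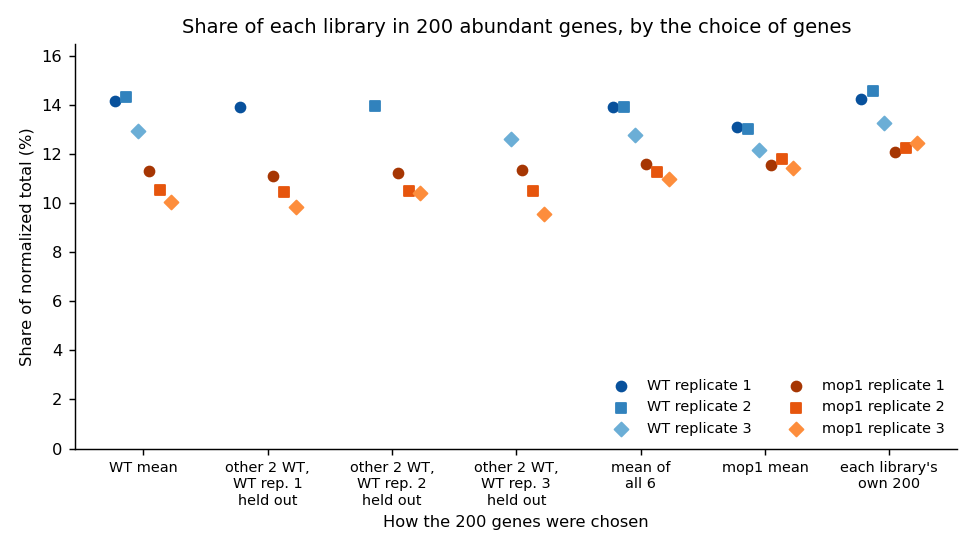
Percentage of each library's normalized total taken by 200 genes, for 7 ways of choosing them along the x axis; each point is 1 library, and libraries that chose the genes are left out of the held-out columns. WT points lie above mop1 points in every column, and the distance is smallest where the mop1 mean chose the genes or where each library brings its own.

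The same ordering held at other depths of each library's own list. The own 10 highest genes took 1.84% ± 0.251 in mop1 and 2.59% ± 0.292 in WT, and the own 50 took 5.30% ± 0.222 and 6.74% ± 0.470. The own 1000 took 30.4% ± 0.890 and 32.4% ± 0.682 (SD, n = 3 each). In these 3 comparisons and that of the own 200 the genotypes did not overlap, and the exact permutation p was 0.1 before and after Benjamini-Hochberg adjustment over the 4 comparisons. Without mop1 replicate 3 the difference for the own 200 was -1.85 percentage points, with an exact permutation p of 0.2, the smallest possible for 2 against 3. Each library's own list also leaves out the interval of IDs, while the total holds it. With the interval kept, the difference for the own 200 in all 6 libraries was -1.89 percentage points. Down the lists without it, between 2403 and 2503 genes reached 50% of the total in WT libraries, against 2451 to 2703 in mop1 libraries. This measure overlapped, through mop1 replicate 3 at 2451.

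Spread within WT was far above counting error for these genes. The WT CV ranged from 1.32% to 66.4% with a median of 15.5%, and at all 200 genes it exceeded the counting error of the WT library with fewest reads. It was under 10% at 62 genes, 10% to 50% at 135 and over 50% at 3. The median over all tested genes was 16.3%, and over the 200 genes next in WT rank it was 13.1%. WT replicate 3 was the lowest WT library at 100 genes and the highest at 67, and the median CV was 9.88% without it.

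The gene with the smallest WT CV, at rank 74, had 11178, 10943 and 11215 normalized counts in WT and 8409, 8027 and 8032 in mop1. Both groups were tight and did not overlap. The gene with the largest, at rank 21, had 36650, 22630 and 7212 in WT and 19847, 27748 and 12991 in mop1. Its mop1 values all lay inside the WT range. Rank 17 was second in spread, with 21467, 40163 and 12869 in WT and 21970, 16386 and 34.2 in mop1. There mop1 replicates 1 and 2 lay inside the WT range, and mop1 replicate 3 lay more than 100-fold below the WT mean, at 47 reads.

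Spread within mop1 was wider. The median mop1 CV of the 200 genes was 32.0%, and the mop1 CV exceeded the WT CV at 161 of them, or 80.5%, against 83.0% of the next 200 genes in WT rank and 68.5% of all tested genes. It was under 10% at 19 genes and over 50% at 46. Over mop1 replicates 1 and 2 alone the median was 16.8%, and over pairs of WT libraries it was 9.88% to 14.4%. Only 11 of the 200 genes had a CV under 10% in both genotypes, ranks 5, 7 and 15 being the highest of them. Rank 15 had 28338, 27608 and 26081 in WT and 24297, 24608 and 26927 in mop1, with overlap of the groups.

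The median log2 difference between mop1 and WT was -0.40 over the 200 genes, with quartiles of -0.82 and -0.12, against -0.021 over all 23150 tested genes. Without mop1 replicate 3 it was -0.43, against -0.068. All 3 mop1 libraries lay below all 3 WT libraries at 71 of the 200 (35.5%), where 10.2% of all tested genes did so, and above them at 4 (2.0%), where 7.5% did. Without mop1 replicate 3 the number below was 111, against a background of 23.7%. Since the WT values chose the genes, the choice itself favours lower values in mop1, and nothing is read from these counts.

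The fit over all tested genes is given on the same terms. By limma, 0 of the 200 genes passed an adjusted p of 0.05, where 0.0216% of all tested genes passed, and 54 had an unadjusted p under 0.05, where 10.4% of all tested genes did. Of the 54, 53 were lower in mop1 (background 6.25%). On the recovered reads, edgeR called 0 of the 200 against a background of 0.013%, with 36 at an unadjusted p under 0.05 (background 10.3%). DESeq2 called 11, all lower in mop1, against a background of 1.92% in either direction and 0.972% lower. With the replicate number as a block it called 53, 52 of them lower (background 2.49%). Leaving out mop1 replicate 1 gave 5 called by limma, all lower (background 0.203%), and leaving out mop1 replicate 3 gave 1, lower (background 0.181%). Without mop1 replicate 3, edgeR called 1, lower (background 0.173%), and DESeq2 called 29, 28 of them lower (background 3.19%).

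The deviation from WT shrank with WT rank in mop1 replicates 1 and 2. In mop1 replicate 1 the median log2 deviation from the WT mean was -0.36 over the 200 genes, -0.35 over the next 200 ranks, -0.24 over the 600 ranks after those and -0.11 over the 4000 ranks that followed, down to rank 5000. In mop1 replicate 2 the same medians were -0.46, -0.38, -0.22 and -0.12. In mop1 replicate 3 they were -0.33, -0.058, -0.014 and 0.078. By this median mop1 replicate 3 was near WT below rank 200, where mop1 replicates 1 and 2 were still low. Yet over the next 200 ranks 18.5% of genes were more than 2-fold below the WT mean in mop1 replicate 3, against 1.5% in mop1 replicate 1 and 11.5% in mop1 replicate 2. The WT mean set both the ranks and the zero of this scale, and no test was made of the differences between tiers.

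**Figure D4:**
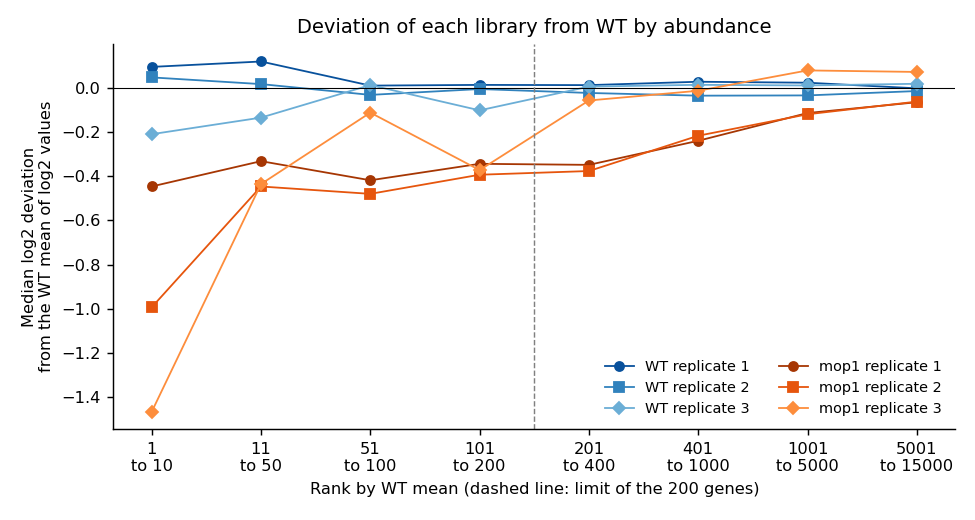
Median log2 deviation of each library from the WT mean of log2 values, by tier of WT rank; each line is 1 library, the horizontal line marks 0, and the dashed line the limit of the 200 genes. The mop1 lines lie lowest at the first ranks, where the tier holds 10 genes, and approach 0 to the right.

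Single genes far below WT were concentrated in mop1 replicates 2 and 3. More than 2-fold below the WT mean were 13 of the 200 in mop1 replicate 1, 47 in replicate 2 and 60 in replicate 3, against 3.97%, 6.98% and 11.9% of all tested genes. More than 4-fold below were 0, 13 and 30, against 0.579%, 1.61% and 5.02%. Of the 13 that were 4-fold low in replicate 2, 12 were also among the 30 of replicate 3. At 123 genes no mop1 library was more than 2-fold below the WT mean. More than 2-fold above it were 0, 1 and 3 genes in mop1 replicates 1 to 3. Of the 23150 tested genes, 1522, 1807 and 1215 were. The WT values chose the 200 genes, and nothing is read from these counts.

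**Figure D5:**
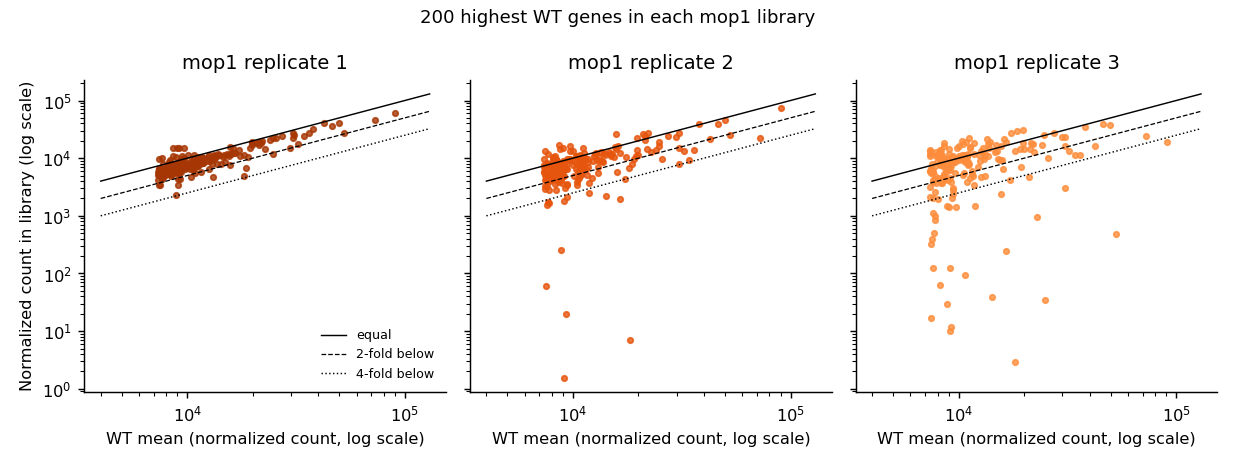
Normalized count in each mop1 library against the WT mean, on log axes, for the 200 genes; each point is 1 gene, and the lines mark equality, 2-fold below and 4-fold below. In mop1 replicate 1 no gene falls under the 4-fold line, while 13 do in replicate 2 and 30 in replicate 3, some of them down to a few normalized counts.

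Genes with the most negative log2 difference shared 1 profile over the libraries. These were ranks 32, 120, 113, 188 and 132, in that order. Rank 32 had 12982, 22424 and 19246 normalized counts in WT and 4830, 6.96 and 2.91 in mop1, the last of them from 9 and 4 reads. Rank 120 had 6769, 10357 and 10123 in WT and 3370, 1.55 and 10.2 in mop1, the last of them from 2 and 14 reads. Both were abundant in WT, reduced in mop1 replicate 1, and almost without reads in mop1 replicates 2 and 3.

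Rank 113 followed the same profile, with 8973, 10139 and 8622 in WT and 4323, 20.1 and 11.6 in mop1. Rank 188 had 5677, 9389 and 7433 in WT and 3428, 60.3 and 16.7 in mop1. Rank 132 had 5282, 10888 and 10395 in WT and 2335, 261 and 29.8 in mop1. In all 5 the mop1 libraries were each more than 2-fold below the WT mean, and mop1 replicate 1 was the highest mop1 library. At ranks 32, 120, 188 and 132, WT replicate 1 was the lowest WT library. Their log2 differences ran from -8.38 to -4.98. Such a mean over 3 unlike libraries describes none of them.

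In 2 other genes all mop1 libraries were more than 2-fold low without near loss. Rank 69 had 9619, 10646 and 14415 in WT and 5693, 5104 and 5412 in mop1. Rank 193 had 5922, 6060 and 10280 in WT and 3484, 2890 and 2128 in mop1. At rank 69 the mop1 libraries were close to one another, at rank 193 less so, and at both WT replicate 3 was the highest library.

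Some genes were lowest by far in mop1 replicate 3. Of the 200 genes, 13 (6.5%) were below all other libraries by more than 4-fold there, against 2.33% of all tested genes. Rank 132 is one of them, and it, rank 37 and rank 48 were also more than 4-fold below the WT mean in mop1 replicate 2. The 13 took 0.0255% of mop1 replicate 3, against 0.699% and 0.620% of mop1 replicates 1 and 2 and 0.809% to 1.32% of WT libraries. The other 187 genes took 10.02% of mop1 replicate 3 and 12.1% to 13.2% of WT libraries, so the lower share of mop1 replicate 3 was also present without the 13. Ranks 3 and 17, given above, are among those more than 100-fold below the WT mean in that library, as are ranks 48, 88 and 158. Rank 88 had 10233, 13678 and 8079 in WT and 6247, 4531 and 93.1 in mop1.

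Low genes of mop1 replicate 3 were mostly also on the low side in WT replicate 3. Of the 60 genes more than 2-fold below the WT mean in mop1 replicate 3, 53 (88.3%) were lower in WT replicate 3 than in the mean of the other WT libraries. Among the other 140 genes this held for 66 (47.1%). At the upper end, mop1 replicate 3 was the highest of all 6 libraries at 44 genes. WT replicate 3 was the highest WT library at 25 of these, and at 67 of all 200 genes. Over all tested genes the deviations of mop1 replicate 3 and WT replicate 3 from their group means had a correlation of 0.49. Over the 200 genes it was 0.39, so the likeness was not particular to them. Across the 200 genes, mop1 replicate 3 was both the highest mop1 library most often, at 91, and the lowest most often, at 72.

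All mop1 libraries lay above all WT libraries at ranks 98, 124, 138 and 150. That is 2.0% of the 200, against 7.5% of all tested genes. The WT values chose the 200, and nothing is read from this count. Rank 138 had 11820, 9592 and 4348 in WT and 15300, 16806 and 16263 in mop1. Rank 124 had 11313, 11238 and 4410 in WT and 14977, 14888 and 14318 in mop1. These had the largest positive log2 differences, 1.03 and 0.84, with the mop1 libraries close together and WT replicate 3 far below the other WT libraries.

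Ranks 98 and 150 differed less. Rank 98 had 10133, 9633 and 10392 in WT and 11390, 13369 and 10724 in mop1. Next in positive difference came ranks 103 and 75, at 0.50 and 0.41. Rank 75 had 9750, 12603 and 10965 in WT and 9559, 14891 and 22344 in mop1, so mop1 replicates 2 and 3 lay above all WT libraries and mop1 replicate 1 below them.

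The limit of the set was shallow. WT means ran from 90239 normalized counts at rank 1 to 7350 at rank 200, a ratio of 12.3, and the first gene outside stood at 7337. The gene of rank 200 had 5943, 8537 and 7572 in WT, and the first gene outside had 6675, 6564 and 8772. Both spreads are much wider than the gap between their means. In mop1 the gene of rank 200 had 4192, 7143 and 13091, and the first gene outside had 5457, 6811 and 12201, so both were highest in mop1 replicate 3. Ranks 202 and 203 had WT means of 7327 and 7314 and were lower in every mop1 library, at 1857 to 5151 and 4027 to 5814.

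Apart from the interval left out, the rule did not use position in the list of IDs. On 3 occasions 2 of the 200 genes stood on consecutive rows, so that 1.5% of them were followed by another, where the 200 are 0.508% of the ranked rows. Within 5 rows either way, 20 of them had another. The pairs were ranks 8 and 26, ranks 9 and 174, and ranks 16 and 96. For ranks 16 and 96 the ratio of normalized counts was 3.39, 2.24 and 1.98 in WT replicates 1 to 3 and 3.56, 1.15 and 0.925 in mop1 replicates 1 to 3. Neighbours in this pair therefore did not keep 1 ratio across libraries. For ranks 9 and 174 the ratio stayed between 3.32 and 4.89. If such neighbours are near-identical copies, reads could have been split between them; their sequences are not used here.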

How the data were processed

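A single table was deposited, holding a signal per gene that the labels call normalized counts, with 6 libraries in columns. Trimmomatic 0.39, HISAT2, SAMtools, HTSeq and DESeq2 are named, per the submitters' processing notes. Their order and settings, the build, the gene models and strandedness are not given in those sources, so reads of overlapping, antisense or near-identical genes may be split or missing, and Mo17 reads may map less well than B73 reads. Each deposited column divided by its smallest value gave whole reads at 100% of its genes, to a tolerance of 0.01 of a read.

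Shares are percentages of each library's deposited total, the left-out IDs included. The median, CV and rank of each gene were computed from the deposited normalized counts with Python 3.11.15, pandas 2.3.3 and scipy 1.17.1. The two-sided fit used log2(normalized count + 1) in limma 3.58.1 (R 4.3.3), with trended, robust empirical Bayes and Benjamini-Hochberg adjustment over the 23150 genes with a value of at least 10 in at least 3 libraries. Log2 differences are on that scale. Alternatives were edgeR 4.0.16 and DESeq2 1.42.0 on recovered reads, other scalings, filters, pseudocounts and choices of genes, and each library left out. All fits were tested on simulated data. No libraries agreed within sampling noise.

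Replicates are numbered 1 to 3 in each genotype, and the labels name no pairing. Libraries with the same number deviated together from their group means, with correlations across genes of 0.15, 0.25 and 0.49. Yet mop1 replicate 1 correlated more with WT replicate 2, at 0.33. Over the 200 genes alone the pairs of the same number had correlations of -0.10, 0.44 and 0.39. Deviations from a group mean depend on one another, so these correlations cannot show a pairing. The blocked fits assume one and are given as alternatives only.

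The genes and lists were chosen with earlier results of these data known. Ranks 1 to 10 were all described singly. Others were drawn from the genes next to rank 200, the 5 largest differences in each direction and the 5 largest and smallest WT CVs. Not all of these are given, so those shown are a further selection. A few more were chosen after their values were seen (ranks 15, 37, 48, 69, 88, 98, 150, 158 and 193, and the neighbouring pairs). Marker lists and groups by function were not run, since no ID had a name.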

Additional observations from a re-analysis of the deposited data

How the results depend on the processing

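The number of the 200 genes past the threshold was 0 by limma under other pseudocounts, filters and scalings, with library weights, at an adjusted p of 0.1 and with a replicate block, and 0 by edgeR with or without the block. DESeq2 gave 11, DESeq2 with a replicate block 53 (52 lower), and without mop1 replicate 3 edgeR gave 1 and DESeq2 29 (28 lower). Of all 23150 tested genes, these fits called 445, 985, 292 and 1988 in either direction. Leaving out 1 library gave 0 to 5 by limma, against 0 to 208 of all tested genes. The WT values chose the 200 genes, and nothing is read from these counts. The blocked edgeR and DESeq2 fits, and those without mop1 replicate 3, were chosen after seeing the data. The replicate block left the median log2 difference at -0.40; no blocked fit was made of the shares, the own ranks or the CVs.

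The share difference of -3.19 percentage points was -2.25 for genes chosen by the mean of all 6 libraries, -1.16 for genes chosen by the mop1 mean and -2.16 against held-out WT replicate 3; leaving out 1 library gave -3.63 to -2.89. With each library's own 200 genes, leaving out 1 library gave -2.14 to -1.50. The median log2 difference was -0.26 for the choice by all 6 libraries, -0.090 by the mop1 mean, -0.33 for the top 500, -0.50 against held-out WT replicate 1, -0.19 after quantile normalization and -0.33 when scaled to the library total, with -0.44 to -0.38 when 1 library was left out. Quantile normalization gives all libraries 1 distribution, which by construction removes differences in how much of the total the highest genes hold. The mean percentage of the genes among a mop1 library's own 200 was 66.0, with 60.8 to 69.8 when a library was left out, and 77.8 for genes chosen by the mop1 mean. The median CV was 9.88 to 14.4% in WT and 16.8 to 33.6% in mop1 when 1 library was left out. For the other moved values the cause was not tested. The differences in share and the median log2 difference stayed negative under all of these alternatives. The number of genes past the threshold, the percentage among the own 200 and the CVs cannot be negative, so no reversal was possible for them. WT counts were 5016 reads or more, while the lowest mop1 value rests on 2 reads, and the part of depth was not tested.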

Other observations

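The 57 genes among the 200 highest by mop1 mean that were not among the 200 highest of WT were read as a further group. They took 2.16%, 2.55% and 2.36% of the mop1 libraries in order of replicate and 1.59%, 1.51% and 1.63% of the WT libraries. The 57 genes they replaced took 1.90%, 1.29% and 0.975% in mop1 and 2.66%, 2.84% and 2.41% in WT. The mop1 values chose the first group and the WT values the second, so these shares are descriptions. Of the entering genes, 38 stood within the first 400 WT ranks, and the lowest stood at WT rank 2908. Their highest library was mop1 replicate 3 for 32, mop1 replicate 2 for 17 and mop1 replicate 1 for 8. All mop1 libraries lay above all WT libraries at 9 of the 57, where 7.5% of all tested genes did so; the mop1 values chose these genes, and nothing is read from the count.

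The entering gene of highest mop1 rank, at 50, had 5655, 8173 and 21416 normalized counts in mop1, against 1581, 1510 and 1858 in WT. The entering gene at mop1 rank 79 had 9440, 9744 and 9490 in mop1 and 6220, 3309 and 1474 in WT, tight in one genotype and spread in the other. The entering gene at mop1 rank 90 had 11541, 13576 and 1891 in mop1 and 2817, 2221 and 1808 in WT, with mop1 replicate 3 inside the WT range. These 3 were chosen after their values were seen. In all, 388 genes were among the own 200 highest of at least 1 of the 6 libraries.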
